A study of Mus musculus with 8 samples.

Results

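The 200 kb of mouse chromosome 7 that hold Cebpa and Cebpg (build mm9, chr7:35800000-36000000) contained 33 of the 113353 sites at which C/EBPα was called by ChIP-seq in at least 1 of 8 liver libraries. The sites were chosen by position alone: every peak of the 8 deposited lists with its midpoint in the interval was taken, and peaks sharing at least 1 bp formed 1 site. They comprised 145 of 446523 peaks. Cebpa is a single exon at about 35904312 to 35906945 on the plus strand, and Cebpg lies at about 35831400 to 35841600 on the minus strand, so that the genes are transcribed away from each other, from starts about 62.7 kb apart. A total of 3 sites had their midpoint inside the Cebpa exon and are given apart from the 30 flanking ones, because a vector that codes for C/EBPα may hold sequence that aligns there.

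The groups, with 2 libraries each, were as follows. In the overexpression experiment, wild-type C57B/6 mice received 1e12 gc (genome copies) of an adeno-associated virus (AAV) vector coding for C/EBPα (AAV_Cebpa) or of an empty vector (AAV_Null). In the knockout experiment, mice homozygous for a floxed Trib1 allele received 1.5e11 gc of a vector coding for Cre recombinase (Trib1_LSKO) or of an empty vector (Trib1_WT). All mice were 8 to 10 weeks old and injected intraperitoneally, all livers were taken after a 4-hour fast, and the C/EBPα antibody was the same throughout. The sources used here do not give the promoter of each vector, the C/EBPα sequence carried, or whether replicates are separate animals, so the spread between replicates may be technical. Whether Trib1 was deleted, and how much C/EBPα each liver held, was not measured by the peak lists.

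C/EBPα is a basic leucine zipper transcription factor that is abundant in hepatocytes and sets the expression of many liver metabolic genes. In the mouse, it binds the promoter of its own gene and raises its transcription, an autoregulatory loop. Cebpg encodes C/EBPγ, a short and widely expressed relative that dimerises with other C/EBP proteins and with ATF4 but lacks a transactivation domain of its own. Trib1 encodes Tribbles-1, a pseudokinase that brings the ubiquitin ligase COP1 to C/EBPα and so promotes its degradation.

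The promoters of the 2 genes are shown because C/EBPα peaks lay over both. Each sequence runs 5′ to 3′ on the gene's own strand, from 250 bases before to 50 after the RefSeq start, in build GRCm38.p6. Capitals mark TTGCGC, the first 6 letters of the C/EBP palindrome, in the first sequence, and CCAAT on the opposite strand (read as ATTGG) in the second. These 2 short motifs were picked after the sequences had been read.

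Cebpa promoter, chr7:35119043-35119342, plus strand: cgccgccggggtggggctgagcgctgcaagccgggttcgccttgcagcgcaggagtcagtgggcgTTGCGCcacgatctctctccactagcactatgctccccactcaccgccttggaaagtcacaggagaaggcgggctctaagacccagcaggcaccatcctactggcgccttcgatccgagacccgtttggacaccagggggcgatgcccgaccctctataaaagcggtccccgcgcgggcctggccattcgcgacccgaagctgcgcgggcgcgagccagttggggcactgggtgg
Cebpg promoter, chr7:35056517-35056816, minus strand: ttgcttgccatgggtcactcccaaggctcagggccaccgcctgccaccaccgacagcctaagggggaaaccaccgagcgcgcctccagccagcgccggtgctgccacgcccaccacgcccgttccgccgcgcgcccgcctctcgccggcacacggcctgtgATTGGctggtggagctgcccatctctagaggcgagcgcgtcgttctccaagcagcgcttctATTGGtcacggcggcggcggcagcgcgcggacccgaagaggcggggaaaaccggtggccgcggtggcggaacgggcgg

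Both strands of both windows were searched for 3 C/EBP motifs. The full palindrome TTGCGCAA, the looser family core TTNNGNAA and the C/EBP-ATF composite TGATGCAA were not among the letters of either window. They occur in 0.183%, 40.7% and 0.895% of the 32851 mouse promoter windows of that table. TTGCGC occurred once in the Cebpa window, starting 185 bases before the start, and in 6.49% of all windows. TTGCGC is a part of the palindrome motif, the full form of which was absent from this window. CCAAT occurred 2 times in the Cebpg window, and 37.4% of all windows hold it at least once. The GC content was 67.3% for Cebpa and 71.7% for Cebpg.

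Each deposited value is the authors' signal for a 200 bp peak. Signals were whole multiples of 1 step per library, so a number of sequence tags could be read for each peak. Lists held 59564 and 80394 peaks in AAV_Cebpa, against 46348 and 49052 in AAV_Null, and 50075 and 53072 in Trib1_LSKO, against 53327 and 54691 in Trib1_WT. Depth relative to the shallowest library was 1.85 and 2.27 in AAV_Cebpa, against 1 and 1.17 in AAV_Null, and 1.18 and 1.28 in Trib1_LSKO, against 1.14 and 1.93 in Trib1_WT. The weakest listed peak had 7 to 12 tags and the strongest 328 to 397, which stayed below 400, the number of positions in a 200 bp peak counted on both strands. Signal near that number says little about how much stronger a peak was. Strength is therefore given as a percentile within the library's own list, in which 100 is the strongest peak. Because lists of different length set this percentile differently, comparisons between groups also use a percentile among the 24318 sites called in all 8 lists.

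The locus was densely bound. Among the 10786 windows of 200 kb along the genome that held a site, the median was 8 sites, and 2.37% held 33 or more. Counting only sites called in all 8 lists, the median was 1, and 9.49% of these windows held 7 or more. Of the 30 flanking sites, 7 were called in all 8 lists (23.3%, against 21.5% of all sites of the series), 15 in 2 to 7 lists, and 8 in a single list (26.7%, against 27.1%). These shares were near those of the whole series. Along the chromosome, 4 sites lay beyond the 3′ end of Cebpg, 3 in Cebpg, 10 between Cebpg and the Cebpa start, 3 in the Cebpa exon, and 13 beyond the exon.

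**Figure D1:**
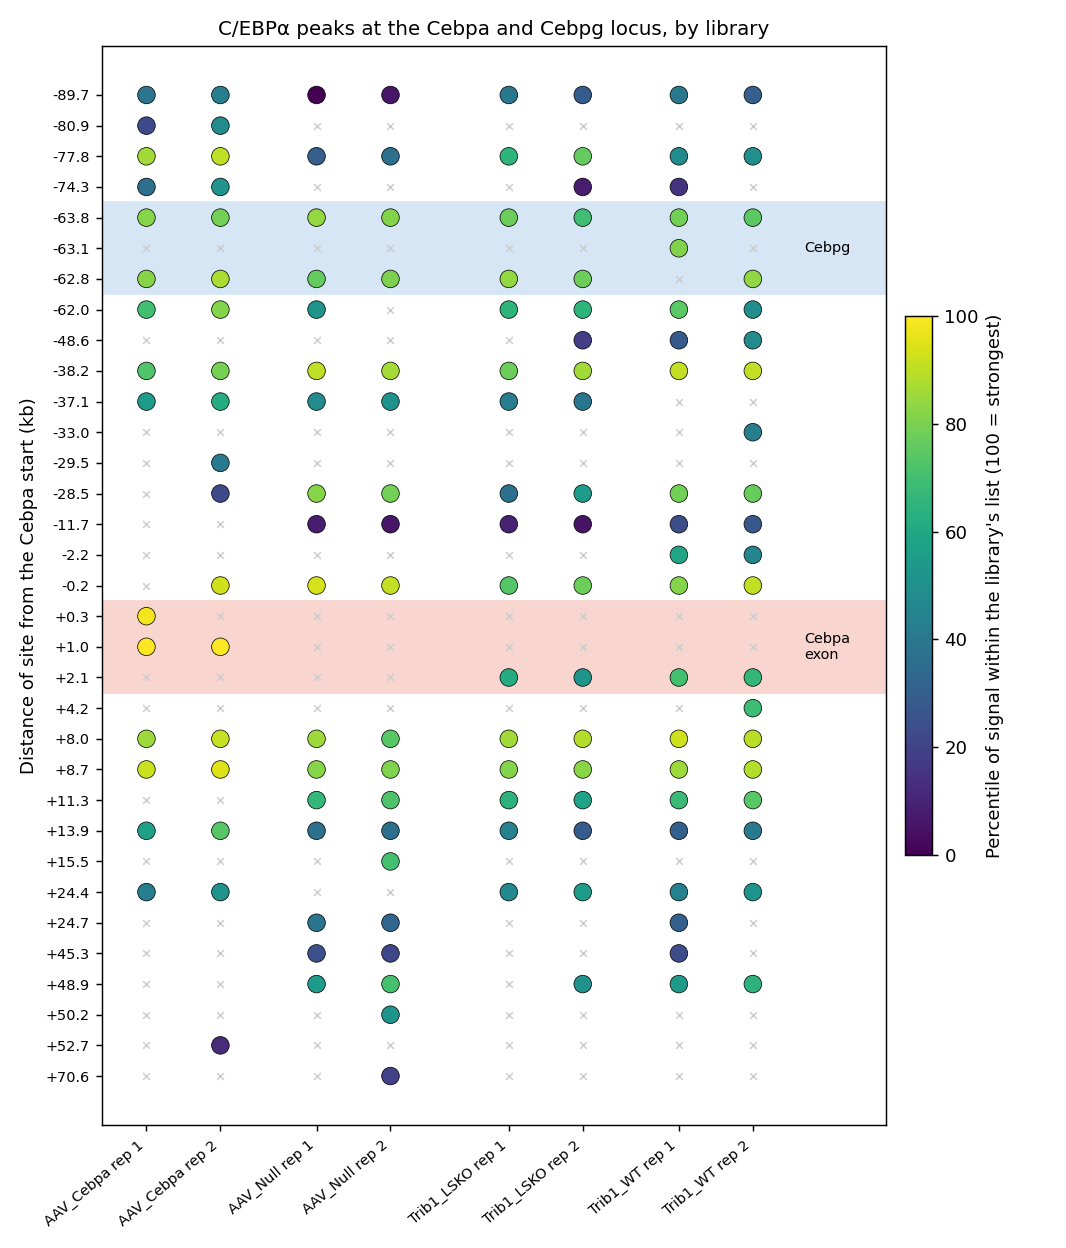
Presence and strength of the 33 sites in each library. Rows are sites by distance from the Cebpa start in kb, columns are libraries, filled circles are coloured by percentile within the library's list, and grey crosses mark no listed peak. The site 1.0 kb into the Cebpa exon was listed in both AAV_Cebpa libraries and in none of the other 6, and the 7 sites at -89.7, -77.8, -63.8, -38.2, 8.0, 8.7 and 13.9 kb were listed in all 8.

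Inside the Cebpa exon the lists differed by experiment. The strongest exon site, chr7:35905237-35905462, has its midpoint 1037 bp into the exon of 2634 bp. It had 326 and 390 tags in the 2 AAV_Cebpa libraries, ranked 5 of 59564 and 2 of 80394, and was not listed in the AAV_Null or Trib1 libraries. Its midpoints in both AAV_Cebpa lists were 26 bp apart. Its tags lay close to the highest of any peak in those lists, 372 and 397.

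A second exon site, chr7:35904536-35904735, centred 323 bp into the exon, was listed in AAV_Cebpa replicate 1 alone. It had 195 tags there and a percentile of 98.1. The third, chr7:35906298-35906555, is centred 2114 bp into the exon, near its 3′ end, and was listed in the knockout experiment only. It was listed in both Trib1_LSKO libraries, at percentiles of 61.4 and 52.6, and in both Trib1_WT libraries, at 70.0 and 66.3, but in no AAV_Cebpa or AAV_Null library. Its ranges did not overlap between Trib1_LSKO and Trib1_WT, and its percentile among common sites averaged 29.6 ± 8.4 in Trib1_LSKO, against 41.1 ± 4.0 in Trib1_WT (SD, n = 2 each). Of all sites kept in the knockout experiment, 31.7% were likewise lower in both Trib1_LSKO libraries. No vector of that experiment codes for C/EBPα. The number of exon peaks per library was thus 2 and 1 in AAV_Cebpa, against 0 and 0 in AAV_Null (exact two-sided permutation p = 0.333, the smallest that 2 against 2 libraries can give). Without AAV_Cebpa replicate 2, both 5′ exon sites counted as gained. The number was 1 in each library of Trib1_LSKO and Trib1_WT. Vector DNA and C/EBPα bound to the chromosome cannot be told apart in these lists, and the part of vector DNA in the exon signal was not tested.

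**Figure D2:**
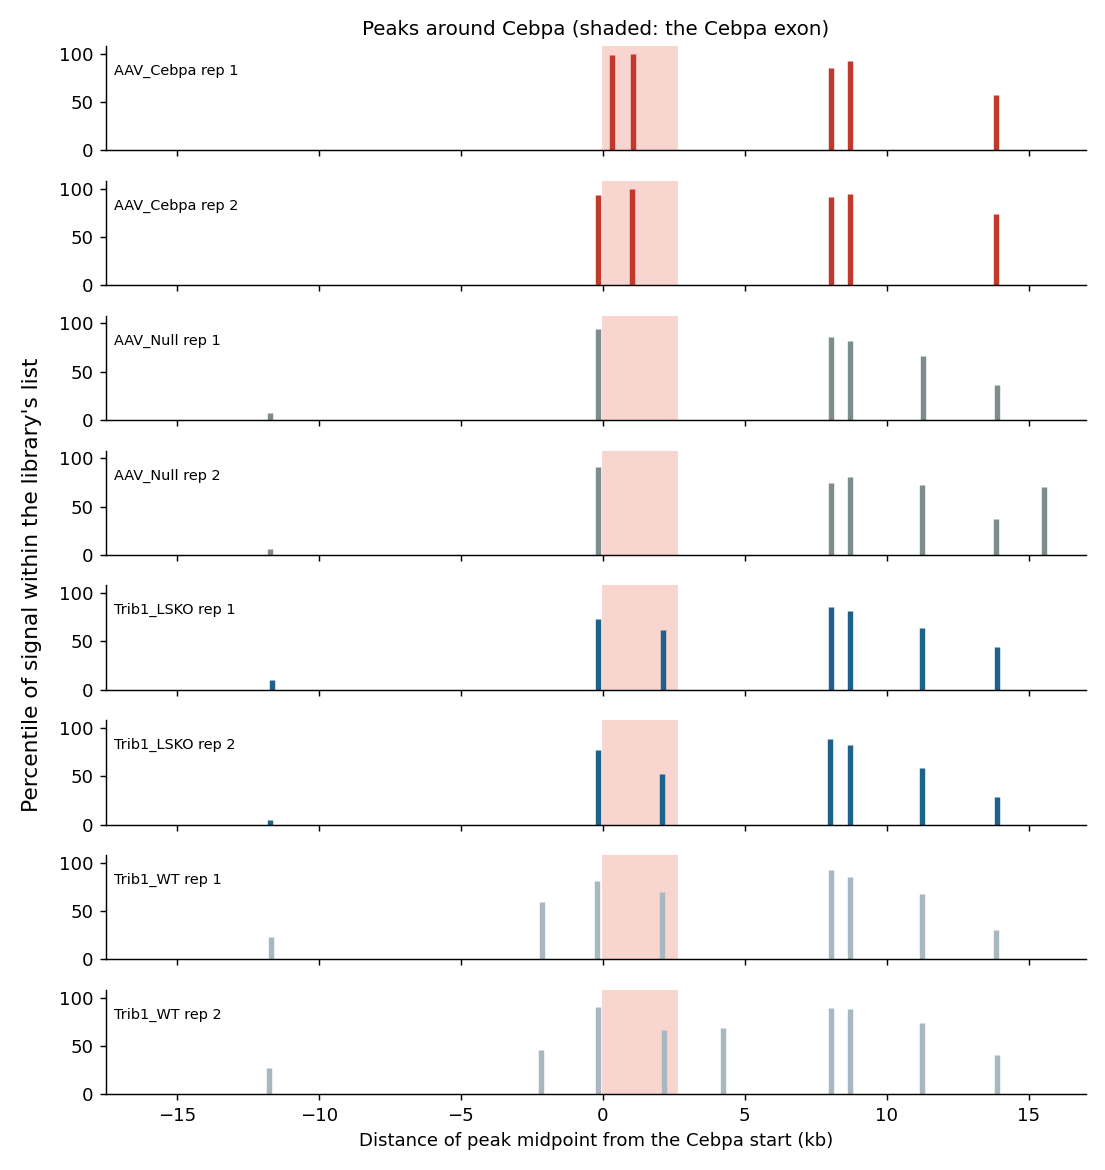
Peaks around Cebpa in each library. The horizontal axis is the distance of the peak midpoint from the Cebpa start in kb, the vertical axis the percentile of the signal within the library's list, each bar is 1 peak, and the exon is shaded. AAV_Cebpa has bars at 98.1 or above inside the exon and none at 11.3 kb, whereas the other 6 libraries have a bar at 11.3 kb and none in the 5′ part of the exon.

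The Cebpa promoter was bound in 7 of 8 lists. The site, chr7:35904023-35904252, spans 60 to 289 bp upstream of the start, a span that includes the position of the TTGCGC motif in the promoter shown above. It was listed in AAV_Cebpa replicate 2 at a percentile of 92.9 with 205 tags. In the shallower AAV_Null libraries it stood at 93.7 and 90.9 with 128 and 132 tags. Among common sites its percentile was 80.4 in AAV_Cebpa replicate 2, against 88.3 and 82.0 in AAV_Null. AAV_Cebpa replicate 1 listed no peak at the promoter. That library was the one with a peak 323 bp into the exon, 498 bp from the promoter site. Neighbouring peaks closer than 400 bp were rare in every list (12 to 26 pairs, at most 0.0496% of neighbours). The 498 bp here is above that distance, so this share does not bear on the promoter site. Whether the exon signal affected the call at the promoter was not tested.

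In the knockout experiment the promoter site ranked lower with Cre. Its percentiles were 73.1 and 77.7 in Trib1_LSKO, against 81.6 and 90.4 in Trib1_WT. The ranges did not overlap. Among common sites its percentile was 54.1 ± 3.5 in Trib1_LSKO, against 71.0 ± 11.8 in Trib1_WT (SD, n = 2 each), a difference of -16.9. On that scale, 31.7% of all sites kept in the experiment were lower in both Trib1_LSKO libraries than in both Trib1_WT libraries. A weaker upstream site, chr7:35902030-35902257, 2.2 kb before the start, was the only flanking site lost in Trib1_LSKO. It was listed in both Trib1_WT libraries, at 59.0 and 45.5, and in none of the other 6.

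Between Cebpg and the Cebpa promoter, 2 of the stronger sites ranked lower in both perturbed livers than in their own controls. Over the whole series, 39.5% of kept sites had a lower percentile among common sites in both AAV_Cebpa libraries than in both AAV_Null libraries. For Trib1_LSKO against Trib1_WT, this share was 31.7%. The share of all sites that ranked lower in both experiments was not computed, so whether these 2 sites differ from the series was not tested. At 38.2 kb upstream of Cebpa (chr7:35866026-35866262) the percentile was 72.4 and 79.2 in AAV_Cebpa, against 90.2 and 86.4 in AAV_Null. It was 77.4 and 86.1 in Trib1_LSKO, against 91.0 in each Trib1_WT library. Neither pair of groups overlapped. Among common sites the difference was -27.5 for AAV_Cebpa (50.1 ± 1.7 and 77.6 ± 5.8 in AAV_Null) and -15.7 for Trib1_LSKO (65.0 ± 9.4 and 80.7 ± 0.4 in Trib1_WT; SD, n = 2 each).

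The site 28.5 kb upstream (chr7:35875676-35875946) differed more. AAV_Cebpa replicate 1 did not list it and replicate 2 listed it at a percentile of 21.5 with 29 tags, against 82.0 and 78.9 in AAV_Null with 73 and 80 tags in shallower libraries. In Trib1_LSKO it stood at 36.5 and 54.9, against 78.7 and 76.8 in Trib1_WT. Its percentile among common sites was 19.1 ± 9.6 in Trib1_LSKO, against 55.5 ± 2.7 in Trib1_WT (SD, n = 2 each), a difference of -36.5. The group ranges did not overlap in either experiment, counting the missing peak as below the listed ones.

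A weak site 11.7 kb upstream (chr7:35892464-35892762) was lost in AAV_Cebpa. It stood at 7.5 and 5.6 in AAV_Null, so close to the bottom of those lists that the absence concerns a peak of 11 and 12 tags. In Trib1_LSKO it had 9.5 and 4.9 with 13 and 12 tags, against 23.2 and 27.2 in Trib1_WT with 16 and 29 tags. Among common sites it lay near the bottom in both groups (0.7 ± 0.6 and 4.6 ± 0.9, SD, n = 2 each), a difference of -3.8. The only flanking site gained in Trib1_LSKO, chr7:35867114-35867383 at 37.1 kb upstream, had percentiles of 42.1 and 39.1 there and no listed peak in Trib1_WT. It was also listed in both AAV_Cebpa libraries, at 54.3 and 61.4, and in both AAV_Null libraries, at 47.5 and 50.6, so it was a site that the Trib1_WT lists lacked rather than one seen with Cre alone. Of the other 3 sites in this stretch, 1 was listed in 3 knockout-experiment libraries and 2 in a single library.

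At Cebpg, binding clustered at the gene's start. The site over the start, chr7:35841429-35841647, reached 171 bp into the gene and 47 bp upstream and was listed in 7 libraries. Its percentile was 81.7 and 87.2 in AAV_Cebpa, against 76.2 and 80.3 in AAV_Null, and 83.6 and 77.7 in Trib1_LSKO, against 83.5 in Trib1_WT replicate 2. Trib1_WT replicate 1 had its peak 317 bp further into the gene instead, at 81.2, the only library with a peak there. A flanking peak 1127 bp into the gene (chr7:35840367-35840580) was listed in all 8 libraries, with percentiles of 81.7 and 78.7 in AAV_Cebpa, against 83.7 and 81.4 in AAV_Null, and 77.4 and 69.3 in Trib1_LSKO, against 78.7 and 74.9 in Trib1_WT. Those list percentiles overlapped in both experiments, whereas among common sites it was lower in AAV_Cebpa (56.7 ± 9.0) than in AAV_Null (67.3 ± 4.0; SD, n = 2 each). On the upstream side, 712 bp before the Cebpg start, a site was listed in 7 libraries, at 69.6 and 81.4 in AAV_Cebpa, 51.9 in AAV_Null replicate 1 and nowhere in AAV_Null replicate 2. It had 65.2 and 65.1 in Trib1_LSKO, against 74.4 and 49.1 in Trib1_WT, which overlap.

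Beyond the 3′ end of Cebpg, 2 sites ranked higher in AAV_Cebpa than in AAV_Null and the other 2 were gained. Over the whole series, 22.1% of the sites listed in that experiment were gained. Of all kept sites, 31.2% had a higher percentile among common sites in both AAV_Cebpa libraries than in both AAV_Null libraries. Whether this stretch differs from the series was not tested. The strongest, 77.8 kb upstream of Cebpa (chr7:35826407-35826696), had 86.1 and 90.2 in AAV_Cebpa with 111 and 186 tags. In the shallower AAV_Null libraries it had 29.5 and 36.7 with 18 and 26 tags. It also ranked higher in Trib1_LSKO, at 65.2 and 75.8, against 48.3 and 49.9 in Trib1_WT. Neither pair of groups overlapped. Among common sites, its percentile was 72.4 ± 2.3 in AAV_Cebpa and 12.3 ± 3.1 in AAV_Null, a difference of 60.1, and 46.8 ± 9.3 in Trib1_LSKO, against 19.7 ± 1.0 in Trib1_WT, a difference of 27.1 (SD, n = 2 each). These were the largest positive differences of the 9 and 13 flanking sites kept in all 4 lists of each experiment.

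The neighbouring site at 80.9 kb upstream (chr7:35823271-35823493) was gained in AAV_Cebpa, at 22.5 and 47.9, and was listed in no other library. It had 24 and 58 tags there, in libraries that were deeper, with longer lists, than those of AAV_Null. A further gained site, at 74.3 kb upstream (chr7:35829852-35830082), stood at 36.0 and 51.3 in AAV_Cebpa. It was also listed in Trib1_LSKO replicate 2, at 7.7, and in Trib1_WT replicate 1, at 14.7, so it was not confined to the C/EBPα vector. The outermost site, 89.7 kb upstream (chr7:35814534-35814772), was listed everywhere, at 38.7 and 42.7 in AAV_Cebpa, against the weakest signal of the list in AAV_Null replicate 1 and 5.6 in replicate 2. The difference in list percentile was 37.9, and among common sites it was 11.5 (12.0 ± 2.9 in AAV_Cebpa and 0.5 ± 0.7 in AAV_Null; SD, n = 2 each). With lists of equal length it could not be computed, because a library no longer listed the site. In Trib1_LSKO it had 40.4 and 28.7, against 40.2 and 29.8 in Trib1_WT, so those groups overlapped.

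Downstream of Cebpa, a pair of sites 8.0 and 8.7 kb from the start was listed in all libraries. The first (chr7:35912228-35912466) had 85.5 and 91.2 in AAV_Cebpa, against 85.4 and 74.1 in AAV_Null, and 86.1 and 88.3 in Trib1_LSKO, against 92.5 and 89.7 in Trib1_WT. The AAV_Cebpa and AAV_Null values overlapped among common sites. The second (chr7:35912920-35913133) had 92.0 and 94.8 in AAV_Cebpa, against 82.0 and 80.6 in AAV_Null, and 81.4 and 82.3 in Trib1_LSKO, against 85.2 and 88.3 in Trib1_WT. It thus ranked higher with the C/EBPα vector and lower with Cre, with differences among common sites of 18.5 and -7.4. The site 13.9 kb downstream (chr7:35918060-35918291) had 57.0 and 73.6 in AAV_Cebpa, against 36.4 and 36.7 in AAV_Null, while Trib1_LSKO (43.8 and 28.7) and Trib1_WT (30.3 and 40.7) overlapped.

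Of the 5 flanking sites lost in AAV_Cebpa, 4 lay downstream of the gene. The site 11.3 kb downstream (chr7:35915449-35915678) was lost: it was listed in AAV_Null at 66.7 and 72.0, in Trib1_LSKO at 64.3 and 58.1 and in Trib1_WT at 67.9 and 74.2, and in neither AAV_Cebpa library, both of which were deeper than the AAV_Null libraries. The site at 48.9 kb (chr7:35953104-35953367) was likewise lost, with 54.5 and 70.5 in AAV_Null. It was listed in Trib1_LSKO replicate 2 alone of its group, at 50.2, against 54.7 and 64.3 in Trib1_WT. A weaker site at 45.3 kb (chr7:35949473-35949680) was listed in AAV_Null, at 24.4 and 21.2, in Trib1_WT replicate 1, at 23.2, and in no AAV_Cebpa or Trib1_LSKO library.

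At 24.4 and 24.7 kb the calls changed place. The nearer site (chr7:35928554-35928782) was listed in AAV_Cebpa at 42.5 and 51.3 and in all 4 Trib1 libraries at 43.6 to 54.9, and not in AAV_Null. The farther one, 379 bp away (chr7:35928939-35929154), was listed in AAV_Null at 38.4 and 33.1 and in Trib1_WT replicate 1 at 30.3, and not in AAV_Cebpa. They count as 1 gain and 1 loss in AAV_Cebpa. Peaks closer than 400 bp were rare in every list (at most 0.0496% of neighbours), and only Trib1_WT replicate 1 listed both sites. Whether the gain and the loss are separate events was not tested. When peaks were joined with windows of 400 bp, both merged into a single kept site, which left 2 gained and 4 lost flanking sites. The 8 flanking sites of a single list had 17 to 81 tags and percentiles of 12.4 to 81.2.

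In AAV_Cebpa, a smaller share of flanking sites was gained, and a larger share lost, than over all sites. Of the 25 flanking sites listed in that experiment, 3 were gained (12.0%, against 22.1% of all sites), 5 lost (20.0%, against 6.03%) and 9 kept in all 4 lists (36.0%, against 27.6%). The difference from the rest of the series was not tested. Without AAV_Cebpa replicate 1, 5 flanking sites counted as gained and 5 as lost, and without AAV_Null replicate 1, 4 counted as gained and 8 as lost. Among the strongest 50% of each list, 2 were gained, 3 lost and 5 kept. With lists of equal length, 2 were gained, 5 lost and 8 kept. Flanking peaks numbered 13 and 17 in AAV_Cebpa, against 17 and 19 in AAV_Null, so the groups met at 17. The difference was -3 (exact two-sided permutation p = 0.667, with 0.333 the smallest possible). Among the 9 kept sites, 6 had a higher percentile among common sites in both AAV_Cebpa libraries than in both AAV_Null libraries (66.7%, against 31.2% of all kept sites), and 2 a lower one (22.2%, against 39.5%).

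**Figure D3:**
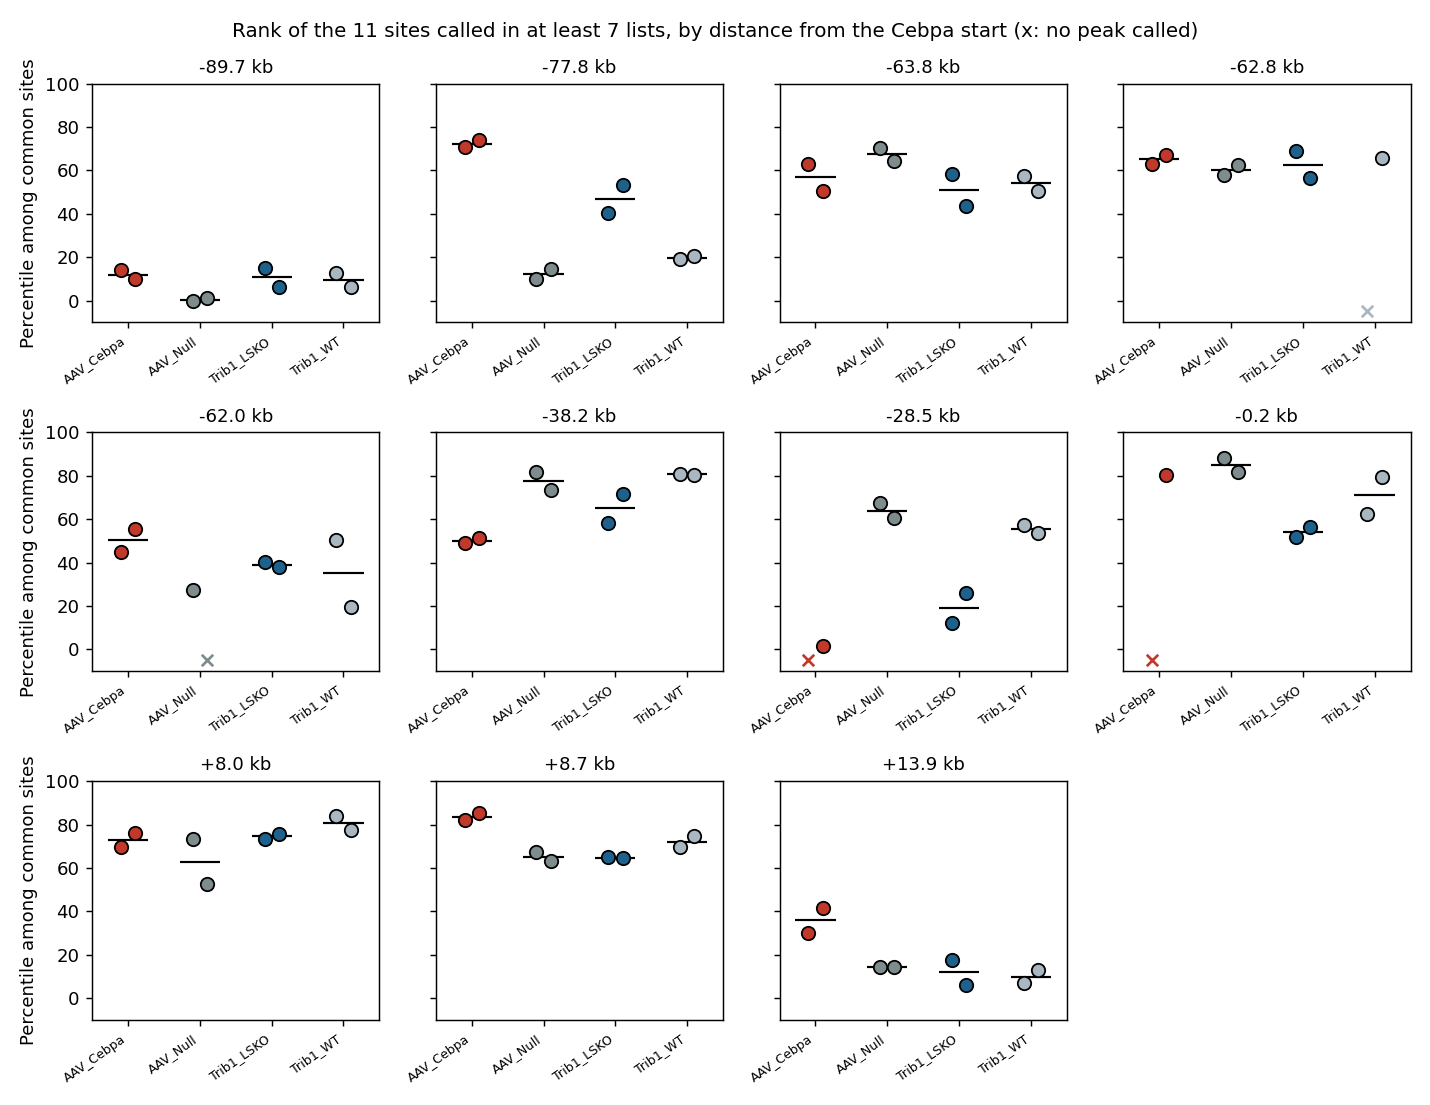
Rank of the 11 sites called in at least 7 lists. Each panel is 1 site, headed by its distance from the Cebpa start in kb, points are libraries, horizontal bars are means of 2 libraries, the vertical axis is the percentile among sites common to all lists, and crosses mark no listed peak. At -77.8 kb AAV_Cebpa (72.4) and Trib1_LSKO (46.8) lie above AAV_Null (12.3) and Trib1_WT (19.7), and at -38.2 kb they lie below them.

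Over the 7 flanking sites called in all 8 lists, the mean percentile within the list was 76.0 ± 3.7 in AAV_Cebpa and 57.8 ± 0.6 in AAV_Null (SD, n = 2 each), a difference of 18.2 (p = 0.333 in an exact two-sided permutation test, which can give no smaller value). For the same 7 sites it was 11.9 on the scale of common sites, and 15.6 to 20.9 when 1 library was left out. It was 7.32 over the 6 flanking sites called everywhere when each list was reduced to its strongest 46348 peaks, and 2.83 over the 4 called everywhere among the strongest 50% of each list. Without AAV_Cebpa replicate 1, 9 sites were called in all remaining lists, and over these the difference was 9.75. The 18.2 averages over sites that went both ways. List percentile differences were 55.1 at 77.8 kb upstream, 37.9 at 89.7 kb upstream and 28.8 at 13.9 kb downstream. They were 12.1 and 8.6 at 8.7 and 8.0 kb downstream, -12.5 at 38.2 kb upstream and -2.3 inside Cebpg. Among common sites the largest was 60.1, at 77.8 kb upstream.

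For Trib1_LSKO, 24 flanking sites were listed in the experiment. Of these, 1 was gained (4.17%, against 4.74% of all sites), 1 was lost (4.17%, against 4.86%) and 13 were kept in all 4 lists (54.2%, against 46.3%), shares near those of the whole series. Leaving out Trib1_LSKO replicate 2 or Trib1_WT replicate 1 gave 3 lost sites. Leaving out Trib1_WT replicate 2 gave 4 lost and 2 gained sites. Flanking peaks numbered 15 and 18 in Trib1_LSKO, against 20 and 19 in Trib1_WT (p = 0.333 in an exact two-sided permutation test, which can give no smaller value). Among the 13 kept sites, 1 had a higher percentile among common sites in both Trib1_LSKO libraries than in both Trib1_WT libraries (7.69%, against 23.0% of all kept sites), the one 77.8 kb upstream, and 7 had a lower one (53.8%, against 31.7%). The 7 were the promoter site and those 38.2, 28.5 and 11.7 kb upstream and 8.0, 8.7 and 11.3 kb downstream. The mean percentile of the 7 sites common to all lists was 66.5 ± 1.3 in Trib1_LSKO, against 66.5 ± 0.2 in Trib1_WT (SD, n = 2 each), a difference of 0.02 (exact two-sided permutation p = 1.000). This mean averages over sites that went both ways, with list percentile differences of 21.4 at 77.8 kb upstream, -9.3 at 38.2 kb upstream, -4.9 and -3.9 at 8.7 and 8.0 kb downstream and -3.5 inside Cebpg. Over the 4 sites called everywhere among the strongest 50% of each list, the difference was -10.2 (exact two-sided permutation p = 0.333).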

How the data were processed

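Each library has 1 list of 200 bp peaks, in which the authors deposited a position and a signal value per peak. Bowtie, HOMER and build mm9 are named in the submitters' processing notes. The sources used here give no versions, input, threshold or duplicate handling. Signal was a whole multiple of 1 step per library within 0.051 for 100.0% of peaks, and this multiple is given as tags.

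A site is gained when both libraries of AAV_Cebpa or Trib1_LSKO list it and neither control does, lost in the reverse case, and kept when all 4 list it. A missing peak means only that none was listed. Libraries were compared with exact permutation tests, and the site calls were tested on simulated lists for AAV_Cebpa against AAV_Null, in which 723 of 723 gained and 450 of 450 lost sites were counted (Python 3.11.15, pandas 2.3.3, NumPy 2.4.6, SciPy 1.17.1, Matplotlib 3.10.9). Simulated sites were well separated and every library listed each site of its group, so close neighbours and missed peaks were not tested.

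Values are given for exon sites, flanking sites called in 8 lists, gained or lost sites and those nearest either gene start. Others named with values were chosen after these were seen. The members and lists were chosen with earlier results of these data known. Gene bounds in mm9 are approximate. Promoters come from RefSeq (GRCm38.p6), both matched by symbol, and no coordinate was converted.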

Additional observations from a re-analysis of the deposited data

How the results depend on the processing

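Of 495 recomputed values, 18 had the opposite sign to the reported one. Of these, 8 were Trib1_LSKO differences in mean percentile, 9 were differences at single sites whose groups overlapped as reported, and 1 was at the site over the Cebpg start. A further 36 moved by more than the spread between replicates, or by over 1.5 times for a count. Alternatives were windows of 100 and 400 bp, the strongest 50% of each list, a common signal floor of 6.1, lists of equal length, any overlap with the exon, a replicate block and leaving out each library. The scale of common sites, and leaving out libraries with the same 7 sites held, were chosen after seeing the data.

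With the strongest 50%, AAV_Cebpa kept 5 and lost 3 flanking sites, Trib1_LSKO kept 6 and lost 0, and 4 were called in all lists, since fewer peaks enter. The Trib1_LSKO difference in mean percentile, 0.02 as reported, was -10.2 with the strongest 50% and -0.29 among common sites. The site over the Cebpg start had a percentile difference of -0.55 in AAV_Cebpa with lists of equal length, against 6.2 as reported. The first rests on 4 sites rather than 7, and the cause of the others was not tested.

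Leaving out 1 library at a time gave 3 to 5 gained and 5 to 8 lost flanking sites in AAV_Cebpa, and 1 to 2 gained exon sites. It gave 1 to 2 gained and 1 to 4 lost flanking sites in Trib1_LSKO, and a difference in mean percentile of -4.73 to 0.91 there. The -4.73 came without AAV_Cebpa replicate 1, when the sites called in every list numbered 9, and with the same 7 sites the range was -0.87 to 0.91 (-0.12 without Trib1_WT replicate 2).

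Replicates share only a number: deviations of same-numbered libraries correlated at -0.066 (AAV_Cebpa and AAV_Null) and 0.141 (Trib1_LSKO and Trib1_WT) over 24318 sites. With the replicate block, the mean percentile differed by 18.2 in AAV_Cebpa (exact permutation p = 0.500, the smallest that 2 pairs allow) and by 0.02 in Trib1_LSKO, flanking peaks by -3 in both, and exon peaks by 1.5 and 0. Gained, lost and kept sites were not recomputed under the block.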
